A study of Mus musculus with 6 samples.

Results

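The interferon-induced gene families of dorsal skin were examined in mice treated topically with rebamipide. Members were chosen by gene name: the Ifit, Ifitm, Oas, Gbp, Irf, Isg and Ifi genes whose symbols carry a number or member letter, together with Mx1, Mx2, Rsad2, Usp18 and Stat genes, with 1 Irf gene set aside by the rule. The rule took 75 of the 21959 genes of the expression table. Of these, 68 were expressed highly enough to be tested among 14875 genes. The 3 members Ifi44l, Ifitm7 and Oas1d had 0 counts in all 6 libraries, and Ifi214, Ifit1bl2, Ifitm5 and Oas1h did not pass edgeR's filter on low counts.

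The mice were male C57BL/6 animals with no transgene or deletion, shaved on the back in telogen, the resting phase of the hair cycle, at 7 weeks of age. Vehicle mice received 30% dipropylene glycol in 70% distilled water and rebamipide mice received 3% rebamipide, a gastroprotective drug, on the shaved skin each day for 7 days. Each of the 3 libraries per group came from dorsal skin of 1 mouse, which the study describes as full-thickness. The comparison addressed which genes of the skin responded to rebamipide.

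Interferons are secreted proteins that cells release on sensing viral nucleic acid or immune stimulation. Type I and type III interferons signal through JAK kinases to a complex of STAT proteins with IRF9 that binds the interferon-stimulated response element (ISRE), whereas interferon-gamma signals to STAT dimers that bind the gamma-activated site (GAS). The induced genes include RNA-binding Ifit proteins, Oas enzymes that activate the ribonuclease RNase L, membrane-bound Ifitm proteins that restrict virus entry, guanylate-binding proteins (Gbp) that attack intracellular pathogens, and Ifi200 proteins, several of which bind DNA. In skin, keratinocytes, endothelial cells, fibroblasts and resident immune cells can all express them. A few members carry a matching name without being typical interferon-induced genes: Ifitm5 is a bone protein, and the Irf2bp genes encode partners of IRF2.

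The libraries held 32709801 to 39915276 counts. The share of counts from mitochondrially encoded genes was 2.59% to 5.36% in vehicle and 13.3% to 22% in rebamipide libraries. The skin label was checked against defining markers, and rebamipide library 3 stood apart. It held 0 counts of Krt14, the main keratin of basal epidermis, and 0 of the Langerhans cell marker Cd207, whereas Krt14 ranged from 6102 to 64371 counts in the other 5 libraries. The brown fat gene Ucp1 was at 0 counts in each vehicle library and at 81048, 220449 and 150572 counts in rebamipide libraries 1 to 3. Summed levels of 8 macrophage markers were 543, 1120 and 1200 CPM (counts scaled to a common library size) in vehicle libraries 1 to 3 and 1150, 472 and 300 in rebamipide libraries 1 to 3. Those of 8 fibroblast markers were 12400, 14500 and 18900 CPM against 15900, 3740 and 1980 CPM, and those of 8 skeletal muscle markers 5120, 21700 and 25400 CPM against 32600, 6950 and 261 CPM. Rebamipide library 1 therefore held more macrophage, fibroblast and muscle transcript than the other rebamipide libraries. In bulk tissue, fewer cells of a type and less RNA per cell cannot be told apart. Rebamipide treatment and a difference in the tissue layers sampled cannot be told apart in the group comparisons that follow.

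**Figure D1:**
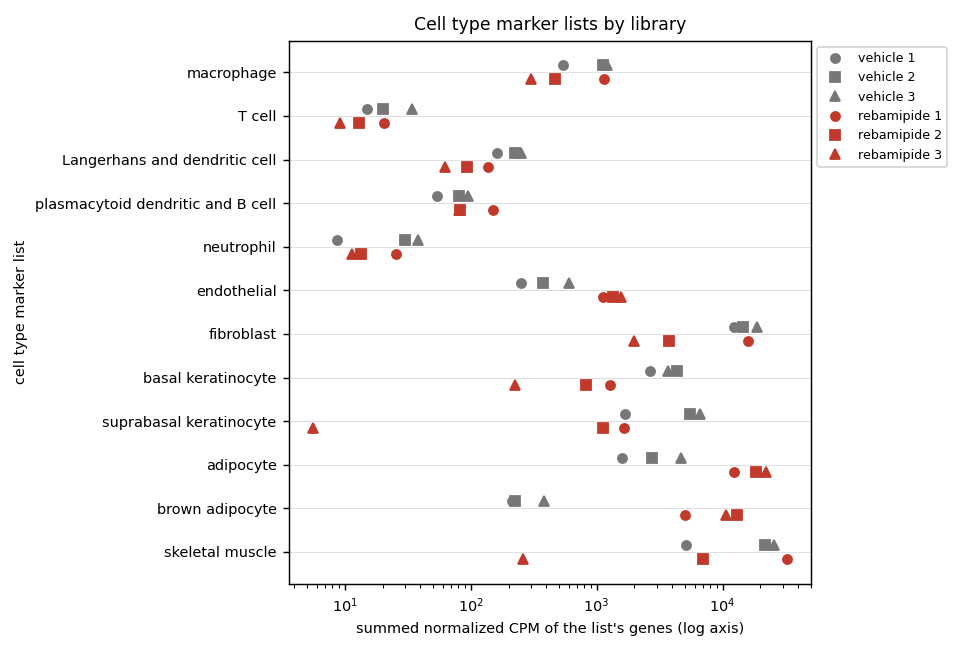
Summed normalized CPM (log axis) of the genes of each cell type marker list in the 6 libraries, with vehicle in grey and rebamipide in red. Endothelial and both adipocyte lists are higher in the 3 rebamipide libraries, whereas macrophage and fibroblast levels of rebamipide libraries 2 and 3 lie below those of rebamipide library 1.

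Across the members, few passed the test. Differences were tested with edgeR's quasi-likelihood test and Benjamini-Hochberg adjustment over the 14875 genes. At an adjusted p under 0.05, 4 of the 68 members were higher with rebamipide (5.88%), against 14.1% of all genes tested. Ifi27, Ifi27l2b and Rsad2 were among them. Ifi27l2b passed the filter on low counts through its rebamipide libraries alone. With at least 10 counts required in every library it was not tested, and 3 of 56 members were higher (17% of all genes). None of the members was lower by edgeR, against 6.51% of all genes, while 4 were lower (18.8% of all genes) and 7 were higher (20.9% of all genes) at an unadjusted p under 0.05. DESeq2, which tested 72 members, called 6 higher (15% of all genes) and 3 lower (14.4% of all genes), Ifitm10 and Ifi205 among the lower. With limma-voom 4 were higher (14.4% of all genes) and 0 lower (6.94% of all genes). With total counts alone 3 were higher (8.46% of all genes) and 5 lower (25.2%), and on the log2(FPKM + 1) scale 3 were higher (9.42%) and 9 lower (32.3%). With the thresholds of the study's methods, an unadjusted p under 0.05 and a log2 fold change beyond 1, 6 members were higher (14.3% of all genes were) and 4 were lower (14.5% of all genes were). All rebamipide libraries lay above all vehicle libraries for 9 members (24.5% of all genes) and below them for 6 members (24% of all genes). In this paragraph, the shares of called members were below those of all genes wherever both are given.

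The middle of the members moved differently from the middle of all genes, but this rested on single libraries. The median log2 fold change was 0.38 over the members and -0.17 over all genes tested, and 42 members lay above 0 and 26 below. Relative to the vehicle mean, the median member stood at 1.20 on the log2 scale in rebamipide library 1, at -0.26 in library 2 and at -0.49 in library 3. The same median over all genes was -0.06, -0.11 and -0.18. Vehicle library 1 stood at -0.61 for the median member, and the other vehicle libraries at 0.15 and 0.28. Without vehicle library 1 the members' median was 0.22 in edgeR and -0.16 in limma-voom, where that of all genes was -0.18. Without rebamipide library 1 the members' median became -0.49 in edgeR, and 22 of the 68 members changed sign. Scaling by total counts alone moved the median of all genes from -0.17 to -0.78 and that of the members to -0.15.

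**Figure D2:**
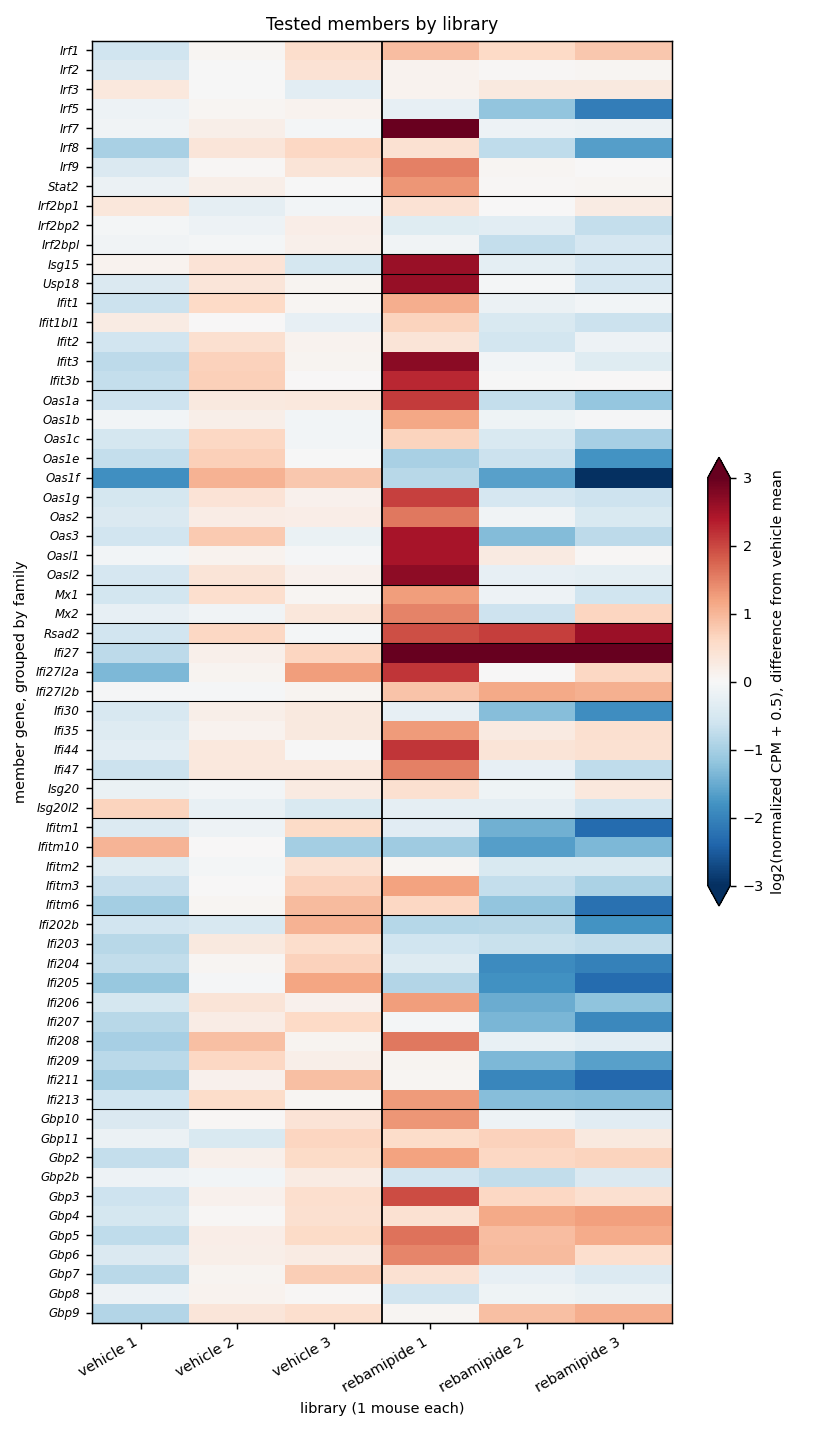
Level of 66 of the 68 tested members in the 6 libraries, as the difference in log2(normalized CPM + 0.5) from the vehicle mean, with red above and blue below it and lines between families. Rebamipide library 1 is red for most Ifit, Oas, Isg15, Usp18 and Irf7 rows where libraries 2 and 3 are mostly pale or blue, whereas the rows of Ifi27 and Rsad2 are red in all 3 rebamipide libraries.

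Ifi27 encodes a small mitochondrial membrane protein and is a well-known target of interferon alpha. Its level was 37.1, 71.7 and 102 CPM in vehicle libraries 1 to 3 and 822, 943 and 1150 CPM in rebamipide libraries 1 to 3. Every rebamipide library was far above every vehicle library, and the means were 70.2 ± 32.4 and 971 ± 165 CPM (SD, n = 3). On the log2 scale the rise was 3.79 ± 0.45 SE (edgeR adjusted p = 0.00939).

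Ifi27 lies on chromosome 12 (103400470 to 103406498, GRCm39, plus strand), beside its relatives Ifi27l2a and Ifi27l2b on the opposite strand. Ifi27l2a, the member with the highest mean FPKM, had 41.6, 112 and 253 CPM in vehicle and 466, 107 and 163 CPM in rebamipide libraries. Its groups overlapped, since only rebamipide library 1 exceeded the vehicle range (log2 fold change 0.86 ± 0.79 SE, edgeR adjusted p = 0.445). Within a library, the ratio of Ifi27 FPKM to Ifi27l2a FPKM was 0.282, 0.201 and 0.127 in vehicle and 0.557, 2.77 and 2.23 in rebamipide libraries. The ratios of the groups did not overlap (two-sided exact permutation p = 0.1, the smallest that 3 against 3 libraries allow). A second ratio formed in the same way, Rsad2 over Ifit3, did overlap. It was 0.209, 0.177 and 0.166 in vehicle and 0.113, 0.879 and 1.56 in rebamipide libraries (two-sided exact permutation p = 0.4). Ifi27l2b had 0, 0 and 2 counts in vehicle and 13, 16 and 15 counts in rebamipide libraries. The gene was close to absent from vehicle skin, and the ratio of pooled normalized counts was 39 with an exact 95% counting interval of 10.2 to 332 (edgeR adjusted p = 0.0232 for the group comparison). Ifi27l2b passed the filter on low counts through its rebamipide libraries alone. It was not tested where at least 10 counts were required in every library.

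Rsad2 encodes viperin, a radical SAM enzyme that makes a chain-terminating nucleotide against viral polymerases. It was at 2.92, 7.35 and 4.43 CPM in vehicle and at 19.1, 20.8 and 29.8 CPM in rebamipide libraries. All rebamipide libraries exceeded the vehicle libraries, with means of 4.9 ± 2.25 and 23.2 ± 5.73 CPM (SD, n = 3). This was a log2 fold change of 2.24 ± 0.41 SE (edgeR adjusted p = 0.0184). Rsad2 lies on chromosome 12 (26492745 to 26506451, GRCm39, minus strand) next to Cmpk2 (26519203 to 26529836), a mitochondrial nucleotide kinase that is no member. Cmpk2 was at 6.95, 10.3 and 8.64 CPM in vehicle and at 37.8, 18.1 and 21 CPM in rebamipide libraries, again without overlap (log2 fold change 1.57 ± 0.36 SE, edgeR adjusted p = 0.0306).

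Stat2, a subunit of the ISRE-binding complex, was at 22.7, 28.8 and 25.5 CPM in vehicle and at 64.2, 26 and 26.6 CPM in rebamipide libraries. Only rebamipide library 1 was above the vehicle range (0.60 ± 0.40 SE, edgeR adjusted p = 0.295).

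The 4 rises called rested on few libraries per group. All 4 were kept without rebamipide library 1 (18.3% of all genes were called higher there), where edgeR gave adjusted p-values of 0.00901 for Ifi27, 0.0225 for Rsad2 and 0.0305 for Ifi27l2b. Without vehicle library 2, none of the members and none of all genes tested passed in edgeR, and without rebamipide library 2 none of the members and 1 of all genes passed. In those fits 5 and 7 of 69 members had an unadjusted p under 0.05, against 27.5% and 26.5% of all genes. DESeq2 called all 4 rises in both of those fits and limma-voom called 1 of them in each. Ifi27l2b also missed the threshold without vehicle library 1 (adjusted p = 0.0601) and without rebamipide library 3 (adjusted p = 0.0536) in edgeR. Endothelial marker levels moved with these genes, at 249, 379 and 607 summed CPM in vehicle and 1130, 1340 and 1560 CPM in rebamipide libraries. Of these 8 markers, 4 were higher in edgeR (14.1% of all genes) and none was at 0. Brown adipocyte markers did so too, at 214, 225 and 384 CPM against 5040, 13000 and 10700 CPM, with 6 of 8 markers higher (14.1% of all genes). General adipocyte markers were at 1580, 2770 and 4660 CPM against 12300, 18500 and 22000 CPM, also with 6 of 8 higher. Their part in these results was not tested.

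**Figure D3:**
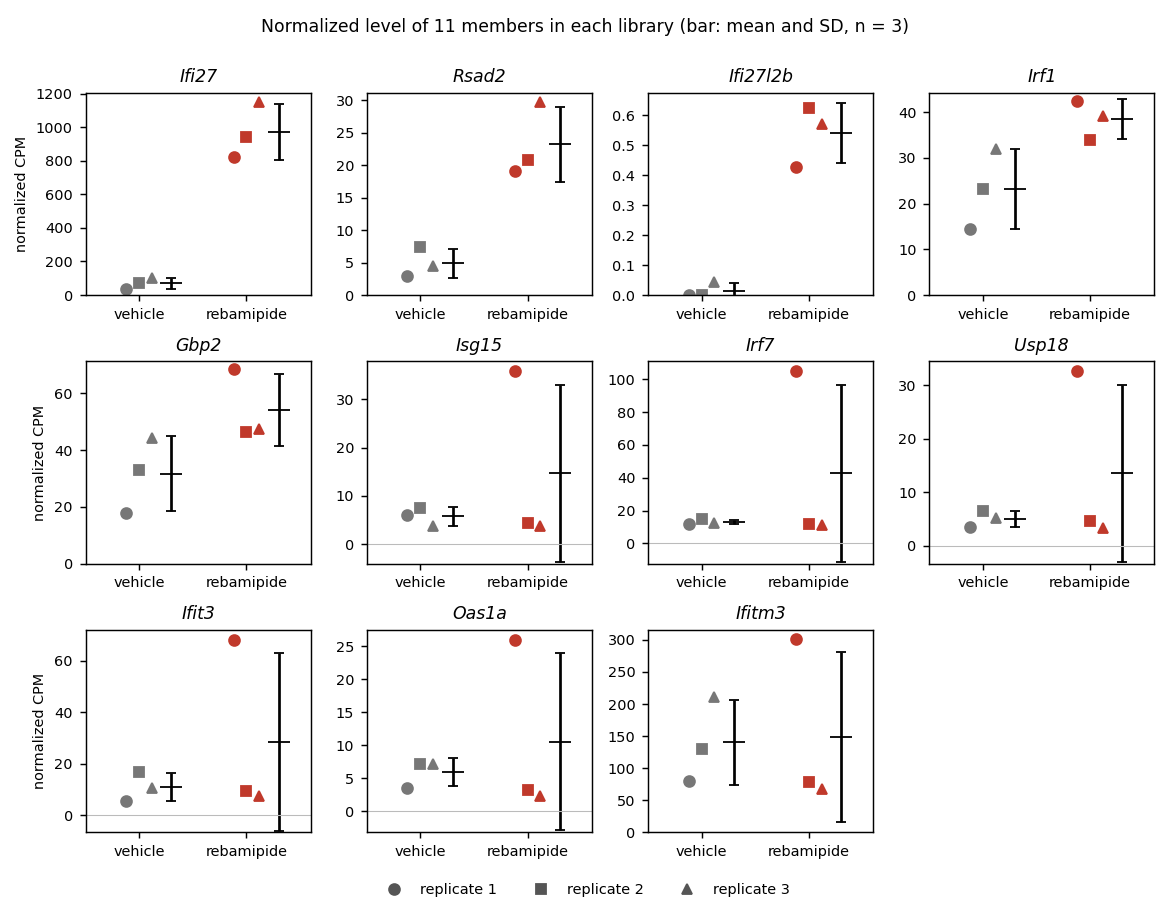
Normalized CPM of 11 members in each vehicle (grey) and rebamipide (red) library, with a symbol per replicate and black bars for the mean and SD (n = 3). For Ifi27, Rsad2, Ifi27l2b, Irf1 and Gbp2 the groups do not overlap, whereas for Isg15, Irf7, Usp18, Ifit3, Oas1a and Ifitm3 only rebamipide library 1 lies above the vehicle libraries.

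Many members were high in a single rebamipide mouse. Rebamipide library 1 was the highest of the 6 libraries for 36 of the 68 members (52.9%), against 9.08% of all genes tested. It was at least 2-fold above both other rebamipide libraries for 36 members (15.2% of all genes). For 21 members it was the highest library while rebamipide libraries 2 and 3 were below the vehicle mean (4.47% of all genes). Of those 21, 7 were Oas genes, 4 were Ifit genes and 3 were Ifi200 genes.

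Irf7, the factor that amplifies type I interferon production, had 12, 14.7 and 12.4 CPM in vehicle and 105, 11.7 and 11.5 CPM in rebamipide libraries. The vehicle libraries were tightly grouped, and libraries 2 and 3 of rebamipide lay just under them. The log2 fold change of 1.72 ± 0.91 SE did not pass (edgeR adjusted p = 0.207), and it was -0.16 without rebamipide library 1. Irf7 overlaps Phrf1 by 45 bases on the opposite strand, and strand use in counting was not given in the sources used here. Irf9, the DNA-binding partner of STAT proteins, had 20.5, 28.2 and 36.5 CPM in vehicle and 79.5, 28.6 and 27.8 CPM in rebamipide libraries (0.67 ± 0.48 SE, edgeR adjusted p = 0.328). Rebamipide library 1 was again the highest, with libraries 2 and 3 inside the vehicle range, and some of its reads may be shared with Rnf31, which overlaps it on the same strand by 123 bases.

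Isg15, a ubiquitin-like modifier, was at 5.97, 7.51 and 3.68 CPM in vehicle and at 35.9, 4.4 and 3.74 CPM in rebamipide libraries (1.36 ± 0.93 SE, edgeR adjusted p = 0.309). Usp18, the protease that removes ISG15 and dampens receptor signalling, was at 3.47, 6.44 and 5.17 CPM and at 32.7, 4.64 and 3.28 CPM (1.43 ± 0.91 SE, edgeR adjusted p = 0.278). Both were raised in rebamipide library 1 and within or under the vehicle range in the other rebamipide libraries.

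Of the 5 tested Ifit genes, 4 were highest in rebamipide library 1. Ifit3, the most abundant of them by FPKM, was at 5.63, 16.7 and 10.7 CPM in vehicle and at 68.2, 9.51 and 7.67 CPM in rebamipide libraries (1.37 ± 0.93 SE, edgeR adjusted p = 0.305). Ifit1, which binds RNA lacking a host-type cap, was at 1.92, 5.22 and 3.42 CPM and at 7.51, 2.84 and 3.05 CPM (0.34 ± 0.56 SE, edgeR adjusted p = 0.669). The groups overlapped for all 5, and Ifit3 and its near copy Ifit3b may share reads.

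Of the 10 tested Oas genes, 8 were highest in rebamipide library 1, with a family median of 0.74 that turned to -0.05 on the log2(FPKM + 1) scale. Oas1a was at 3.53, 7.15 and 7.25 CPM in vehicle and at 26, 3.31 and 2.29 CPM in rebamipide libraries (0.82 ± 0.96 SE, edgeR adjusted p = 0.544). Oas2 was at 3, 5.08 and 4.98 CPM and at 13.8, 3.9 and 2.94 CPM (0.66 ± 0.65 SE, edgeR adjusted p = 0.469). Oas1f, the Oas gene with the highest mean FPKM, went another way, at 5.11, 41.1 and 34.5 CPM in vehicle and at 10.8, 6 and 0 CPM in rebamipide libraries. Like Krt14 it had 0 counts in rebamipide library 3 (edgeR adjusted p = 0.31), and Oas1e had 0 counts there as well. Basal keratinocyte markers were at 2640, 4330 and 3680 summed CPM in vehicle and 1290, 832 and 224 CPM in rebamipide libraries, with Krt14 and Krt15 at 0 in library 3. Their part in the result was not tested. Oas1a and Oas1g are close copies and their counts are uncertain.

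Mx1 and Mx2, dynamin-like antiviral GTPases, were low throughout and overlapped between groups. Mx1, of which C57BL/6 mice carry a defective copy, was at 1.06, 2.78 and 1.88 CPM in vehicle and at 5.01, 1.56 and 1.03 CPM in rebamipide libraries (edgeR adjusted p = 0.686). Mx2 was at 0.962, 1.12 and 1.69 CPM and at 4.35, 0.624 and 2.21 CPM (edgeR adjusted p = 0.354). Ifi44 differed from them in that all rebamipide libraries were higher, at 8.56, 2.18 and 2.33 CPM against 1.16, 2.07 and 1.54 CPM in vehicle (1.45 ± 0.65 SE, edgeR adjusted p = 0.147).

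**Figure D4:**
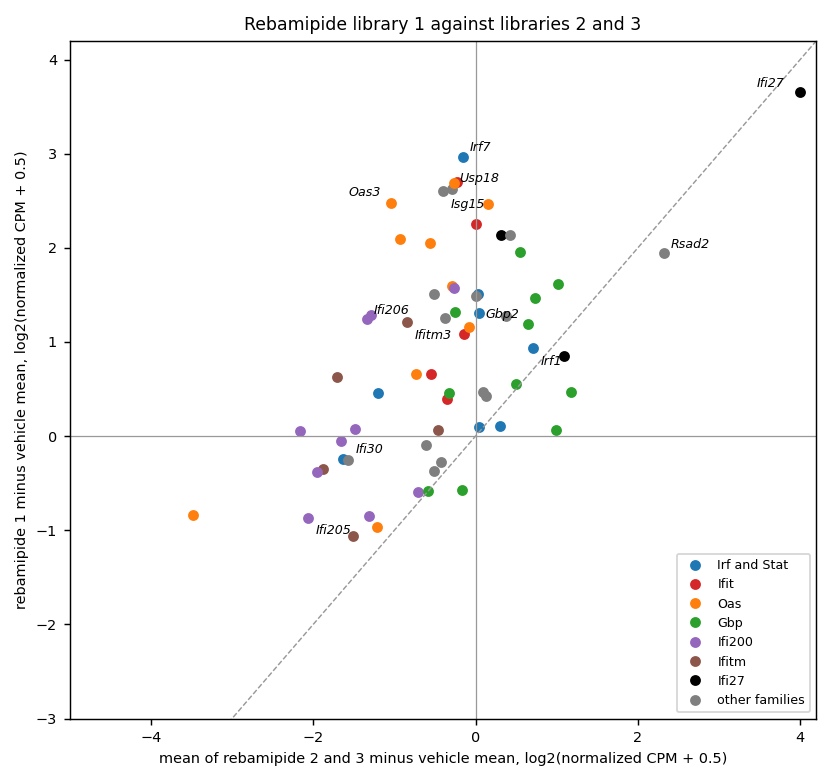
For 66 of the 68 tested members, the difference from the vehicle mean in log2(normalized CPM + 0.5), in rebamipide library 1 (vertical axis) against the mean of rebamipide libraries 2 and 3 (horizontal axis), coloured by family, with a dashed line of equality. Irf7, Isg15 and Usp18 sit high near the vertical zero line, all Ifit points and 8 of the 10 Oas points lie above 0 on the vertical axis with Oas1e and Oas1f low and to the left, Ifi27 and Rsad2 near the line of equality, and most Ifi200 points left of zero.

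Promoter sequence was compared across the members, since members that moved together might share regulatory letters. RefSeq promoters (GRCm38.p6, from 250 bases before to 50 after the start site) matched 56 of the 75 members by symbol. The ISRE core GAAANNGAAA, read on both strands, was in 28 of the 56, and in 3.99% of all 27025 genes with a promoter (3.44% of 32851 promoters). The GAS letters TTCNNNGAA, a palindrome, were in 13 of the 56 and in 9.55% of all genes. Among tested members, rebamipide library 1 was the highest library for 17 of the 26 with the ISRE letters (65.4%) and for 10 of the 24 without them (41.7%). Among other tested genes these shares were 13.7% of 424 genes with the letters and 8.55% of 11199 without. A match is a description of letters, not of a bound site, and promoters of Ifi27 and Usp18 were not in the table. Since members were chosen by interferon-related names, their ISRE share is no independent test. Near copies count as separate genes, with identical windows at Ifit3 and Ifit3b and at Ifi208 and Ifi213. The Ifit1 and Ifit1bl2 matches fall on the same bases.

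The windows below show the letters in capitals with their neighbourhood, 5′ to 3′ on the strand of the gene, for members high in rebamipide library 1 alone. They are examples with a match, and the promoters of Irf7, Irf9, Oasl2 and Ifi47, which were also highest in that library, held neither motif. Isg15 (chr4:156200855-156200916, minus strand) holds 3 overlapping matches, Ifit1 (chr19:34640765-34640833, plus strand) and Ifit3 hold 2 each, and both Ifit3 windows recur letter for letter at Ifit3b. Oas3 lies at chr5:120777705-120777754 (minus strand), Stat2 at chr10:128270256-128270305 (plus strand) and the Ifit3 windows at chr19:34583353-34583402 and chr19:34583387-34583436 (plus strand).
Isg15: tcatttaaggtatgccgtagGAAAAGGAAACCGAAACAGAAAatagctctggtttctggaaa
Ifit1: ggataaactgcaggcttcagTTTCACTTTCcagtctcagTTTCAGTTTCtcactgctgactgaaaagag
Ifit3 upstream: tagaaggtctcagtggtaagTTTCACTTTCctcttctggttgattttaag
Ifit3 downstream: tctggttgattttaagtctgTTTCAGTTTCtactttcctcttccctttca
Oas3: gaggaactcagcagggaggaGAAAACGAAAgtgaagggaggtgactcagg
Stat2: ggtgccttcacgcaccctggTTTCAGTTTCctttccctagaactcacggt

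Windows of 3 members whose rebamipide libraries all lay above vehicle are shown next, whereas the Ifi44 promoter held neither motif, Gbp5 held 1 ISRE and 2 GAS matches that are not shown, and Ifi27, Ifi27l2b and Gbp6 were not in the table. Rsad2 (chr12:26456543-26456592, minus strand) and Gbp2 (chr3:142620584-142620633, plus strand) each hold 1 ISRE match, and Irf1 (chr11:53769904-53769952, plus strand) holds 1 GAS match and no ISRE match in this window.
Rsad2: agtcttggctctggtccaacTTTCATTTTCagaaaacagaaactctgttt
Gbp2: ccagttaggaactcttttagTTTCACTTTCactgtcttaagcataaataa
Irf1 GAS: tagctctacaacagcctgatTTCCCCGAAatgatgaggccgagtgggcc

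Irf1, an early target of interferon-gamma, was at 14.5, 23.1 and 31.9 CPM in vehicle and at 42.5, 33.9 and 39.1 CPM in rebamipide libraries. The groups did not overlap, but the gap was narrow, and the log2 fold change of 0.73 ± 0.32 SE did not pass (edgeR adjusted p = 0.138). Irf3, the constitutive sensor-linked factor, was at 37.7, 29.9 and 24.1 CPM and at 32.4, 37 and 37.1 CPM, with overlap (0.22 ± 0.22 SE, edgeR adjusted p = 0.488).

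The 11 Gbp genes sit in clusters on chromosomes 3 and 5, and none passed the adjusted threshold in edgeR, with 3 higher and 1 lower at an unadjusted p under 0.05 (20.9% and 18.8% of all genes). DESeq2 called 2 higher, Gbp5 and Gbp6 (15% of all genes), and limma-voom called 0. Total-count scaling and the log2(FPKM + 1) scale each called 1 lower, Gbp2b (25.2% and 32.3% of all genes). Their median log2 fold change was 0.77, within a range of -1.37 to 1.21, and became 0.20 with total counts alone and 0.06 on the log2(FPKM + 1) scale. Gbp2, the most abundant by FPKM, was at 17.9, 33 and 44.2 CPM in vehicle and at 68.7, 46.3 and 47.5 CPM in rebamipide libraries. All rebamipide libraries were higher, though libraries 2 and 3 only slightly (0.77 ± 0.37 SE, edgeR adjusted p = 0.166). Gbp5 and Gbp6, chosen after their values were seen, were also without overlap and past the study's thresholds, with log2 fold changes of 1.21 ± 0.44 SE and 1.16 ± 0.43 SE (edgeR adjusted p = 0.0954 and 0.0995). Gbp2b, also named after its values were seen, was lower in every rebamipide library (-1.37 ± 0.50 SE, edgeR adjusted p = 0.0974). Gbp4, Gbp8 and Gbp9 overlap each other on the same strand, so their counts are uncertain.

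The 11 Ifi200 genes lie in 1 cluster on chromosome 1 (173296051 to 173859376, GRCm39), and 10 were tested. Their median log2 fold change was -1.11 and none was called by edgeR, with 1 lower at an unadjusted p under 0.05 (18.8% of all genes). DESeq2 called 1 lower (14.4% of all genes), limma-voom 0 (6.94%), total counts alone 1 (25.2%) and the log2(FPKM + 1) scale 2 (32.3%). For 8 of the 10, rebamipide libraries 2 and 3 were both below all vehicle libraries (36.6% of all genes). Ifi204, the most abundant by FPKM, was at 17, 30 and 47.1 CPM in vehicle and at 22.1, 7.48 and 6.68 CPM in rebamipide libraries (-1.37 ± 0.60 SE, edgeR adjusted p = 0.142). Rebamipide library 1 lay inside the vehicle range and the other rebamipide libraries under it. Without rebamipide library 1, edgeR called 7 of the 68 members lower (10.3%, against 12.8% of all genes), among them Ifi204 (-2.14, adjusted p = 0.0343), Ifi206, Ifi211 and Ifi213. Without that library DESeq2 called 14 of 72 lower (23.9% of all genes) and limma-voom 3 of 68 (8.93% of all genes). The macrophage markers given above had the same order among the rebamipide libraries, with none of the 8 at 0. None was called by edgeR, with 1 lower at an unadjusted p under 0.05, whereas DESeq2 and the log2(FPKM + 1) scale each called 1 lower and limma-voom 0. Their part in the result was not tested. Of the Ifi200 genes, Ifi202b and Ifi209 held no ISRE match and Ifi204 was not in the promoter table. Windows of 3 of those with a match are shown to compare their letters, and the Ifi208 window (chr1:173673587-173673636, plus strand) is repeated exactly at Ifi213.
Ifi208: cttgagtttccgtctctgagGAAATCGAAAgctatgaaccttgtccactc
Ifi205: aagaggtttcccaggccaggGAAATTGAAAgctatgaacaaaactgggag
Ifi211: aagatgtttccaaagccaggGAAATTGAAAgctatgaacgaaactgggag
The Ifi205 window lies at chr1:174031860-174031909 and the Ifi211 window at chr1:173913054-173913103 (both minus strand).

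Ifi30, a lysosomal thiol reductase of antigen-presenting cells, was at 20.6, 32.8 and 35.5 CPM in vehicle and at 24.1, 11.7 and 7.56 CPM in rebamipide libraries (-1.03 ± 0.47 SE, edgeR adjusted p = 0.157). As for Ifi204, rebamipide library 1 lay inside the vehicle range and libraries 2 and 3 under it, and Ifi30 was called lower without rebamipide library 1 (-1.62, edgeR adjusted p = 0.0316). For the 5 tested Ifitm genes the median was -0.78 on the log2 scale, and for all 5 rebamipide libraries 2 and 3 were below all vehicle libraries (36.6% of all genes). None was called by edgeR or limma-voom, with 1 lower in edgeR at an unadjusted p under 0.05 (18.8% of all genes). DESeq2, total counts alone and the log2(FPKM + 1) scale each called 1 lower (14.4%, 25.2% and 32.3% of all genes). Ifitm3, which blocks virus entry at endosomes, was at 80, 130 and 211 CPM in vehicle and at 301, 78.6 and 66.8 CPM in rebamipide libraries. Rebamipide library 1 was the highest of all and libraries 2 and 3 the lowest, so the group difference was near 0 (0.08 ± 0.67 SE, edgeR adjusted p = 0.934). Without rebamipide library 1 it was -0.95 (edgeR adjusted p = 0.157).

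Irf5, a factor of myeloid cells chosen after its values were seen, was lower in every rebamipide library (-1.02 ± 0.49 SE, edgeR adjusted p = 0.174), and it overlaps Tnpo3 on the opposite strand.

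The remaining members fall outside the rule for naming genes and were picked with their values in view. The 3 Irf2bp genes had log2 fold changes from -0.47 to 0.22, and the exonuclease gene Isg20 and its relative Isg20l2 were at 0.24 and -0.46. None of these passed in edgeR or had an unadjusted p under 0.05. With total counts alone and on the log2(FPKM + 1) scale, 2 of the 3 Irf2bp genes, Irf2bp2 and Irf2bpl, were called lower (25.2% and 32.3% of all genes). Irf2, a repressor of interferon targets, was at 0.02 ± 0.26 SE (edgeR adjusted p = 0.965). Irf8, a factor of myeloid and dendritic cells, was at -0.57 ± 0.68 SE (edgeR adjusted p = 0.553). Ifi35 was at 0.75 ± 0.37 SE (edgeR adjusted p = 0.178). The GTPase gene Ifi47 was at 5.37, 11.1 and 11.1 CPM in vehicle and at 25.8, 7.25 and 4.92 CPM in rebamipide libraries, highest in rebamipide library 1 (0.46 ± 0.68 SE, edgeR adjusted p = 0.638). Per length, the members most abundant in vehicle skin were Ifi27l2a at a median of 300 FPKM, Ifitm3 at 237 FPKM and Ifi27 at 60.3 FPKM.

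The other genes of the pathway were taken from lists. Interferon ligands were close to absent: none of the 21 in the table passed edgeR's filter on low counts, and 18 had 0 counts in every library. Interferon-gamma (Ifng) had 3, 8 and 2 counts in vehicle and 1, 2 and 2 counts in rebamipide libraries, too few for a difference to be detectable at this depth. A count of 0 allows up to 3 counts, which is 0.0601 to 0.117 CPM here and covers counting error only.

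Receptor genes were called in both directions. Of 9 receptor and kinase genes, 3 were higher and 2 were lower in edgeR, where 14.1% of all genes were higher and 6.51% lower. With total counts alone (8.46% and 25.2% of all genes) or on the log2(FPKM + 1) scale (9.42% and 32.3%) 1 was higher and 3 were lower. The type I receptor subunit Ifnar2 was at 9.66, 14.3 and 21.6 CPM in vehicle and at 49.8, 58.9 and 70.8 CPM in rebamipide libraries, without overlap (1.98 ± 0.34 SE, edgeR adjusted p = 0.0155). Il10rb, shared by the type III receptor, rose by 1.12 on the log2 scale (edgeR adjusted p = 0.0337), and Ifnar1, named after its values were seen, was the other gene called higher. Jak2, which serves the interferon-gamma receptor, fell by 1.37, and Ifnlr1, the type III receptor of epithelia, fell by 2.05 (edgeR adjusted p = 0.0211 and 0.027). Ifnlr1 was at 9.76, 11.2 and 8.4 CPM in vehicle and at 2.93, 3 and 1.14 CPM in rebamipide libraries. Suprabasal keratinocyte markers were at 1670, 5530 and 6600 summed CPM in vehicle and 1640, 1120 and 5.61 CPM in rebamipide libraries, and basal markers, given above, were also lowest in rebamipide library 3. Their part in the Ifnlr1 result was not tested. Among 9 tested negative regulators 1 was lower, the STAT inhibitor Pias1 (-0.81 ± 0.18 SE, edgeR adjusted p = 0.0294), with a list median of -0.71. With total counts alone 2 were lower and the median was -1.36, and on the log2(FPKM + 1) scale 4 were lower. Trex1 was listed at 0 in every library.

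Of 16 nucleic acid sensing genes, 1 was higher and 1 was lower in edgeR (14.1% and 6.51% of all genes), against 4 and 3 with DESeq2 (15% and 14.4% of all genes). With total counts alone 1 and 3 were called (8.46% and 25.2% of all genes), and 1 and 5 on the log2(FPKM + 1) scale (9.42% and 32.3%). Mavs, the mitochondrial adaptor of RNA sensing, was at 28.3, 32.5 and 35.6 CPM in vehicle and at 81.6, 130 and 132 CPM in rebamipide libraries (1.83 ± 0.25 SE, edgeR adjusted p = 0.0101). The DNA sensor Cgas was at 5.79, 4.12 and 4.6 CPM and at 1.94, 1.56 and 0.687 CPM (-1.79 ± 0.47 SE, edgeR adjusted p = 0.044). In both, the groups were apart, but no gene of the list was called lower without the filter on low counts.

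Induced genes outside the name rule were counted in the same way. Of 30 other interferon-stimulated genes 3 were higher in edgeR (14.1% of all genes), Helz2, Cmpk2 and Parp12. None was lower (6.51% of all genes), with 1 lower at an unadjusted p under 0.05, and the median was 0.32. DESeq2 called 5 higher and 1 lower (15% and 14.4% of all genes). Total counts alone (8.46% and 25.2% of all genes) and the log2(FPKM + 1) scale (9.42% and 32.3%) each called 1 higher and 1 lower, with medians of -0.25 and -0.23. Rebamipide library 1 was the highest library for 22 of the 30 (9.08% of all genes). Helz2, a nuclear coactivator helicase that binds PPAR proteins, was at 15.3, 16.2 and 18.8 CPM in vehicle and at 69.8, 53.4 and 56.1 CPM in rebamipide libraries (1.83 ± 0.20 SE, edgeR adjusted p = 0.00939). Of 7 immunity-related GTPases, a family induced by interferon-gamma, 2 were higher in edgeR (14.1% of all genes), Tgtp1 and Tgtp2. Their log2 fold changes were 2.70 ± 0.45 SE and 1.90 ± 0.33 SE (edgeR adjusted p = 0.0146 and 0.0157), and these near copies may share reads. DESeq2 called 3 of the 7 (15% of all genes) and a replicate block 1 (9.63%). The list's median was 1.07, or 0.54 with total counts alone and 0.35 on the log2(FPKM + 1) scale. Rebamipide library 1 was highest for 5 of the 7 (9.08% of all genes).

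In the interferon-inducible MHC class I pathway, 1 of 12 genes was higher (14.1% of all genes), the proteasome activator Psme2 (0.88 ± 0.24 SE, edgeR adjusted p = 0.0482). Its call was lost with RLE, upper quartile and total-count scaling. It was also lost without the filter on low counts, with a replicate block and on the log2(FPKM + 1) scale. The list's median was 0.32, or -0.23 with total counts alone. Rebamipide library 1 was highest for 10 of these 12 (9.08% of all genes). Of 5 tested chemokines 1 was higher (14.1% of all genes). Cxcl9, a T cell attractant induced mainly by interferon-gamma, was at 4.05, 3.47 and 3.63 CPM in vehicle and at 27.3, 33.5 and 36.5 CPM in rebamipide libraries. The spread within each group was small beside the distance between them (3.12 ± 0.23 SE, edgeR adjusted p = 0.00939). Cxcl10, which both interferon types induce, was at 2.84, 3.39 and 2.84 CPM and at 3.62, 2.49 and 1.18 CPM, with overlap (-0.31 ± 0.47 SE, edgeR adjusted p = 0.641). It was named after its values were seen.

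**Figure D5:**
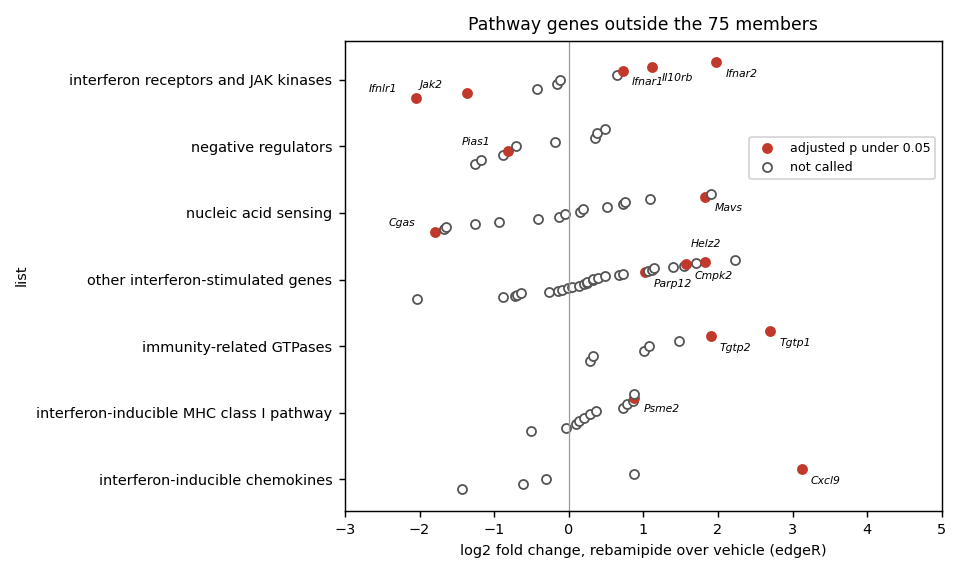
Log2 fold change of rebamipide over vehicle (edgeR) for each tested gene of 7 lists of pathway genes outside the 75 members, with filled red points for an adjusted p under 0.05. Called genes lie on both sides of 0 among receptors and sensors, and on the right among the induced genes, where Cxcl9 has the highest value.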

How the data were processed

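Poly-A RNA of dorsal skin was sequenced for 3 vehicle and 3 rebamipide mice. The authors deposited 1 table that gives read counts, FPKM and a position for each gene. The counts are whole numbers without normalization, and the deposited FPKM are scaled by gene length and library total. The submitters' processing notes name fastp 0.22.0, HISAT2 2.1.0, HTSeq 0.9.1 and the build GRCm39. Table positions (GRCm39) and RefSeq promoters (GRCm38.p6) were kept apart.

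Counts were analysed in R 4.3.3 with edgeR 4.0.16 (filterByExpr, TMM, quasi-likelihood test, no covariate), fitted on all genes. Normalized CPM use TMM library sizes, and the fold standard error is the fold change divided by the root of F. Alternatives were DESeq2 1.42.0, limma 3.58.1 (voom, or log2(FPKM + 1)), other scalings and filters, a replicate block and each library left out. FPKM compared genes within a library. Tests were checked on simulated counts. Libraries of a group differed by more than sampling noise. The 6 libraries were grouped by their titles, which carry the replicate numbers, and all 12 columns of per-sample values were used.

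Of the members, 2 enter all counts and medians but are not reported here by name. Members and lists were chosen with earlier results of these data known. Named with values were members at an adjusted p under 0.05, the most abundant of each family by FPKM, and a set of well-known members. From each list came at most 4 genes by smallest p and 2 by highest FPKM. Genes named beyond these are marked, or appear without values or in lists of calls.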

Additional observations from a re-analysis of the deposited data

How the results depend on the processing

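The count of members higher at an adjusted p under 0.05 was 4 in the edgeR analysis and stayed within 1.5 times of that with DESeq2, limma-voom, other scalings and other filters. With a replicate block it was 2, Ifi27 and Rsad2 (9.63% of all genes), no negative regulator, MHC class I or lower sensing gene was called, and members higher and lower past the study's thresholds were 5 and 2. Libraries with the same replicate number did not deviate together (correlations of -0.016, -0.038 and 0.003), while those of unlike numbers ranged from -0.323 to 0.379. The labels name no pairing, and these correlations cannot settle whether the mice were handled in pairs. Members lower at an adjusted p under 0.05 were 0 in edgeR, 3 with DESeq2 (14.4% of all genes), 5 with total counts alone (25.2%) and 9 on the log2(FPKM + 1) scale (32.3%). Past the study's thresholds, 6 members higher became 9 with DESeq2 (12.6% of all genes), 3 with total counts alone (7.59%) and 2 on the log2(FPKM + 1) scale (5.91%). The 4 lower became 8 with DESeq2 (16.6%), 13 with total counts alone (30.4%) and 8 on the log2(FPKM + 1) scale (20.5%). With total counts alone 1258 of all genes were higher and 3752 lower, against 2093 and 968 with TMM.

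With 1 library left out, in edgeR, DESeq2 or limma-voom (the last pair of tools added after the data were seen), members higher ranged from 0 to 10 and members lower from 0 to 14 at an adjusted p under 0.05, against 0% to 20.4% and 0% to 23.9% of all genes. Past the study's thresholds they ranged from 4 to 15 and from 0 to 16, against 11.5% to 16.3% and 9.29% to 22% of all genes. The median ranged from -0.493 to 0.603. Within single fits, the members' share lay on either side of that of all genes. Without rebamipide library 3, DESeq2 put 15 of 72 members higher past those thresholds (11.5% of all genes) and edgeR 11 of 69 (12.2%). Without rebamipide library 1, DESeq2 called 14 of 72 lower at an adjusted p under 0.05 (23.9% of all genes). All 4 called members kept their sign in every one of these fits. The cause of these shifts was not tested. Members with few counts, such as Ifi27l2b and Gbp8, carry wide errors.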
